A study of Mus musculus with 46 samples.

Results

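Rapamycin does not bind its kinase target directly. It first occupies the pocket of an FKBP, a small immunophilin, and it is this drug and protein pair that docks on mTOR, the nutrient-sensing kinase. The genes described here are 9 mouse FKBP genes whose proteins carry the FKBP isomerase fold: Fkbp1a, Fkbp1b, Fkbp2, Fkbp3, Fkbp4, Fkbp8, Fkbp9, Fkbp10 and Fkbp11. Whether each of these proteins binds rapamycin was not measured here. The genes were chosen by symbol, and every probe that the array's annotation gives to 1 of those symbols was taken. Of the 9 genes, 8 had a probe, with 10 probes in all, against 16593 genes on the whole table. No probe carried the symbol Fkbp10, so this gene was not analysed here.

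Liver RNA came from 46 male C57BL6/J mice, all 8 months old, with 1 Illumina Mouse Ref8 array a mouse. The 11 DR mice had 40% dietary restriction, the 12 Rapa mice had free access to food with 14 ppm rapamycin, the 12 Rapa + DR mice had both the drug and the restriction, and the 11 AL mice ate ad libitum without the drug. Treatment began at 2 months of age and lasted 6 months in each of the 3 treated groups. The drug was given microencapsulated in the food, and restricted mice received their food once a day in the afternoon. The paper's supplement gives a lower mean liver rapamycin level in Rapa + DR than in Rapa, while its main text reports no significant difference. Equal exposure to the drug in these groups is therefore not assumed. The time of day at which livers were taken and the hours since the last meal are not given in the sources used here.

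FKBPs are peptidyl-prolyl isomerases, enzymes that turn the bond before a proline in other proteins. The smallest consist of little more than the isomerase domain, while larger ones add helical repeats that hold Hsp90, a membrane anchor, or a signal that keeps them in the endoplasmic reticulum (ER). In liver, an organ that secretes much of the protein of plasma, the family is therefore spread over the cytosol, the nucleus, the mitochondrial surface and the ER.

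Levels are given as log2 signal on a scale common to all arrays, which keeps the z-score normalization of the deposited values. A change is a difference of group means on that scale, with its standard error (SE) and its adjusted p from limma, adjusted by the Benjamini-Hochberg method over 14474 probes. A gene was called where the adjusted p was under 0.05 and the group medians differed by more than 15%. DR, Rapa and Rapa + DR were each set against the same 11 AL mice, so these comparisons share their reference and are given side by side. Each probe has its own brightness, and levels of different genes are not compared.

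The arrays carried liver RNA by their markers: of 12 tested hepatocyte genes 10 were above background on every array, and of 4 tested cholangiocyte genes none was. The other hepatocyte genes were Alb, above background on 13 arrays, and Pck1, on 41. A probe at background is therefore not read as an absent RNA. Arrays of any pair of mice correlated between 0.932 and 0.995 over all probes. The spread of log2 signals within an array averaged 1.38 in DR, 1.28 in Rapa, 1.41 in Rapa + DR and 1.28 in AL, and the median share of probes above background was 37.4% in DR, 36.0% in Rapa, 41.3% in Rapa + DR and 35.1% in AL. The background signal of the arrays averaged 87.0 in DR, 79.9 in Rapa, 75.8 in Rapa + DR and 85.6 in AL. Because RNA was taken from whole liver, fewer cells of a type and less RNA per cell cannot be told apart.

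Fkbp4 was the member with the largest changes, at 0.47 times its AL level in DR livers and 0.43 times in Rapa + DR livers, with no overlap between either group and AL. Fkbp8 was lower in Rapa and Rapa + DR livers by 0.38 and 0.28 on the log2 scale, and Fkbp2 and Fkbp9 were higher in Rapa + DR livers by 0.40 and 0.22. These smaller changes were less stable. With arrays centred on their mean and not divided by the SD, neither Fkbp8 call held and its change in Rapa + DR was 0.04. Centred on the median of probes above background on every array, the Fkbp8 call in Rapa held and that in Rapa + DR did not (-0.20, adjusted p = 0.0657). The Fkbp9 change was 0.09 with the array SD as a covariate (adjusted p = 0.387), and the Fkbp2 call was lost without any 1 of 11 arrays. Fkbp1a, which encodes FKBP12, the classical receptor of rapamycin, and Fkbp11 were not called in any comparison on the reported scale. Fkbp1b and Fkbp3 were not above background on any array.

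Of the 6 members that could be tested, 1 was called lower and none higher in DR against AL, where 17.6% of all tested probes were called, 11% higher and 6.55% lower. This share, and the shares and percentiles that follow, are over all 14474 tested probes. The 6 members were above background on every array, as were 6477 of those probes, and the others were dim on at least 1 array. In Rapa against AL 1 was called lower and none higher, beside 14.7% of probes, 8.78% higher and 5.94% lower. In Rapa + DR against AL 2 members were called higher and 2 lower, beside 27.8% of probes, 17.8% higher and 10% lower. The count of 4 in Rapa + DR fell to 2 without any 1 of AL mice 1 and 4 or Rapa + DR mice 9, 10 and 12, to 2 with arrays centred on the median or at a median difference over 30%, and to 1 at adjusted p under 0.001.

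Between the treated groups, 1 member was called higher and 1 lower in Rapa + DR against Rapa, where 17.7% of probes were called, 11.7% higher and 6% lower. In DR against Rapa 1 was called lower and none higher, beside 11.3% of probes, 6.85% higher and 4.44% lower. No member was called by limma in Rapa + DR against DR, where 2.23% of probes were, 1.88% higher and 0.352% lower, and 1 of the 6, Fkbp9, had an unadjusted p under 0.05. None was called in the interaction of rapamycin and diet, where 2.54% of probes were, 1.32% higher and 1.22% lower, and 2 of the 6, Fkbp8 and Fkbp11, had an unadjusted p under 0.05. With array weights Fkbp8 was called in the interaction (0.36, adjusted p = 0.0442).

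**Figure D1:**
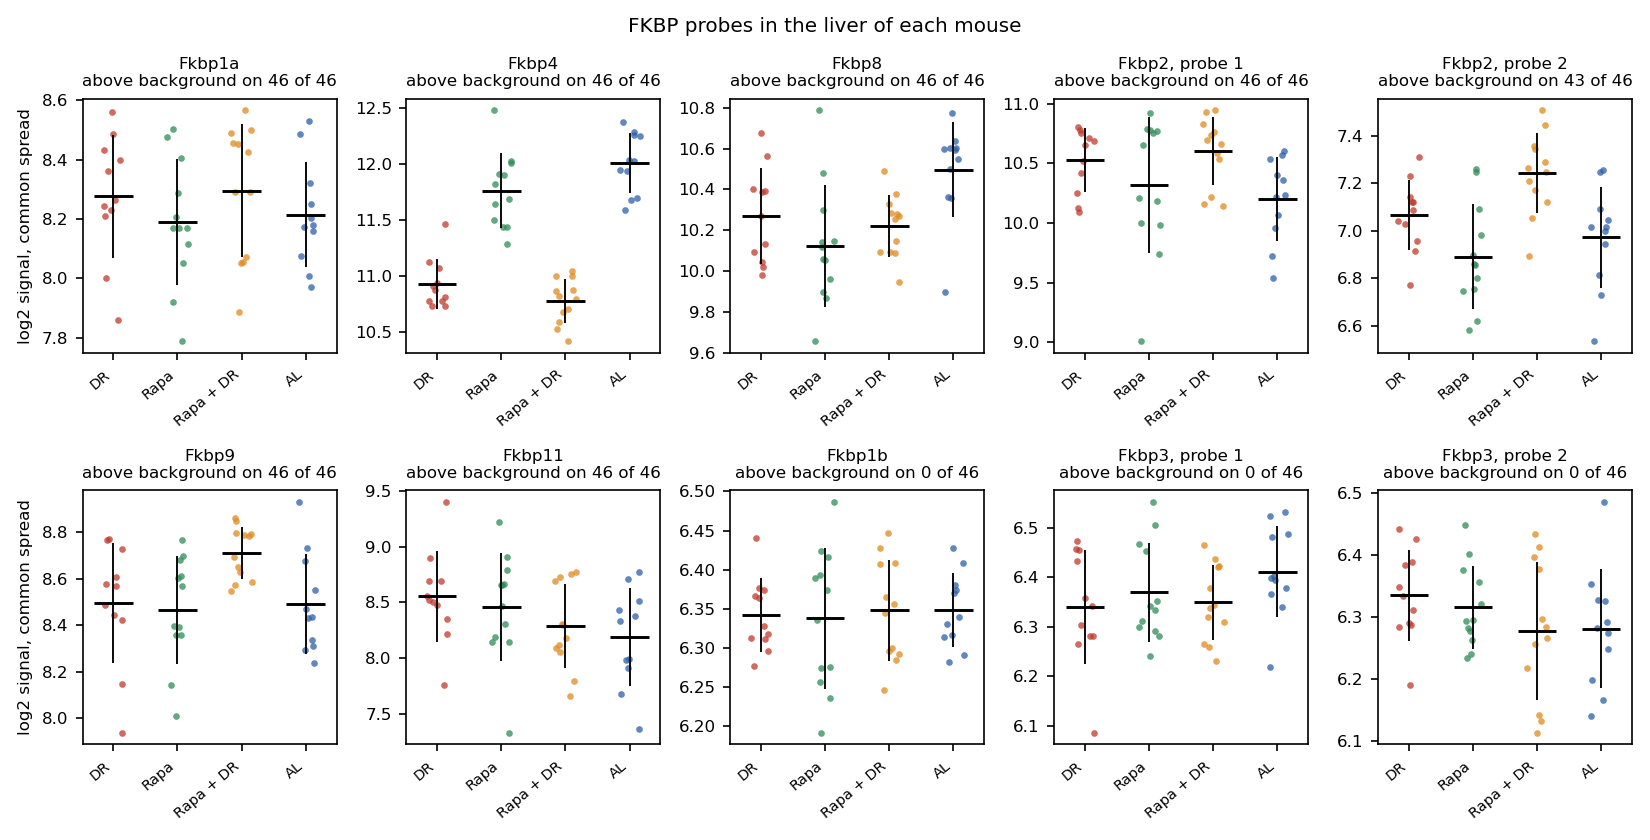
Log2 signal of each of the 10 FKBP probes in each mouse, by group, with the group mean as a horizontal bar and ± 1 SD as a vertical line. For Fkbp4 the DR and Rapa + DR mice lie below every AL mouse, while the Fkbp1b and Fkbp3 panels show probes that were above background on 0 of 46 arrays.

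FKBP12, the product of Fkbp1a, carries rapamycin to mTOR, and in the absence of the drug it sits on type I receptors of the TGF beta family and on calcium release channels. Fkbp1a had a lowest, median and highest level of 7.86, 8.26 and 8.56 in DR, 7.79, 8.17 and 8.50 in Rapa, 7.89, 8.36 and 8.56 in Rapa + DR, and 7.97, 8.18 and 8.53 in AL. The 4 groups overlapped over nearly their whole range. The changes against AL were 0.06 ± 0.09 in DR, -0.03 ± 0.08 in Rapa and 0.08 ± 0.08 for Rapa + DR (SE, adjusted p = 0.666, 0.880 and 0.466, limma). The 95% intervals ran from -0.11 to 0.24 in DR, from -0.20 to 0.14 in Rapa and from -0.09 to 0.25 in Rapa + DR. With arrays centred on their mean but not divided by their SD, Fkbp1a was called higher in Rapa + DR than in Rapa (0.23, adjusted p = 0.0443).

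Fkbp1b is the closest paralog of Fkbp1a and is best known as a subunit of the ryanodine receptor of heart muscle. Its 1 probe stayed between 6.19 and 6.49 over the 46 arrays and was not well above background on any. Fkbp3 encodes a nuclear FKBP that binds DNA and chromatin proteins, and neither of its 2 probes, which stayed between 6.09 and 6.55, was well above background. No change is given for these genes.

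Fkbp4 encodes FKBP52, which joins Hsp90 through its helical repeats and helps steroid receptors bind hormone and move to the nucleus. The lowest, median and highest levels were 10.73, 10.87 and 11.46 in DR, 11.29, 11.76 and 12.48 in Rapa, 10.42, 10.81 and 11.04 in Rapa + DR, and 11.59, 12.03 and 12.38 in AL. The highest DR mouse and the highest Rapa + DR mouse both lay below the lowest AL mouse, whereas the Rapa mice spanned the AL range and reached past both its ends. Fkbp4 fell by 1.08 ± 0.11 in DR (adjusted p = 4.64e-10, lower than the AL median in 11 of 11 mice) and fell by 1.23 ± 0.11 in Rapa + DR (adjusted p = 3.05e-12, 12 of 12). The size of the change was larger than that of 99.4% of all tested probes in DR and of 99.2% in Rapa + DR.

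In Rapa livers the change of Fkbp4 was -0.25 ± 0.11 (SE, adjusted p = 0.106, limma), and 11 of 12 mice were below the AL median. The exception was Rapa mouse 4, at 12.48, and without that array the change was -0.31 with an adjusted p of 0.0233. With limma's array weights it was -0.38 (adjusted p = 0.00488). Rapamycin added to restriction gave a further difference of -0.15 ± 0.11 in Rapa + DR against DR (adjusted p = 0.479, 95% interval -0.37 to 0.06), and the interaction was 0.09 ± 0.15 (adjusted p = 0.785).

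Between the treated groups, Fkbp4 was lower in Rapa + DR than in Rapa by 0.99 ± 0.10 on the log2 scale (adjusted p = 6.06e-10), with no overlap of the groups. DR livers were lower than Rapa livers by 0.84 ± 0.11 (adjusted p = 9.4e-08), and here the groups overlapped, since the highest DR mouse, at 11.46, lay above the lowest Rapa mouse, at 11.29. A permutation test of single comparisons, 1 of 36 run over the members, gave p = 1e-05 for each of the 4 called differences of Fkbp4, which is the smallest value that 100000 resamples can give. The calls against AL held under each scaling and covariate tried. The call in DR against Rapa was lost when arrays were centred on their mean but not divided by their SD (-0.50, adjusted p = 0.0510).

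The promoter of Fkbp4 is shown because this is the member whose RNA moved most, and that of Fkbp1a because its RNA gave no call. Both windows are RefSeq sequence of GRCm38.p6, 300 bases long, with 250 bases before and 50 from the gene's start on. The Fkbp4 window is chr6:128438607-128438906 on the minus strand, and the Fkbp1a window chr2:151542233-151542532 on the plus strand. Capitals mark matches to a heat shock element of 2 units (GAANNTTC) or a CCAAT box (CCAAT), searched on both strands.
Fkbp4: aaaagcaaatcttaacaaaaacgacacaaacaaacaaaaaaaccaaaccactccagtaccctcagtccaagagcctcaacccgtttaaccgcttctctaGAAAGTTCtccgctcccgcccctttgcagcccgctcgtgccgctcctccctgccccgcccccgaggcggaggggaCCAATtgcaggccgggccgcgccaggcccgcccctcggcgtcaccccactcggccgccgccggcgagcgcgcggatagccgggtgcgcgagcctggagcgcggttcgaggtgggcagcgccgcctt
Fkbp1a: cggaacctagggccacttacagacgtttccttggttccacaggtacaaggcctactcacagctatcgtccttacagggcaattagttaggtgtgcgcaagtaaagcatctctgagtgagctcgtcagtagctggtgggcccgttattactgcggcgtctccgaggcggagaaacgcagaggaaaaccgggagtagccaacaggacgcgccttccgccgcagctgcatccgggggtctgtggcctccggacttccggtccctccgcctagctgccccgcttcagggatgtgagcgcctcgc
The Fkbp4 window held 1 match to the heat shock element of 2 units, GAAAGTTC, 151 bases upstream of the start, and 1 CCAAT box 76 bases upstream. Among the 32851 windows of the same length in RefSeq, 7.86% held the first motif and 37.4% the second, and a match is given as a description of the sequence. Neither motif was in the Fkbp1a window. A window was found for 8 of the 9 members, of which Fkbp4 alone held the heat shock element of 2 units and 4, Fkbp2, Fkbp4, Fkbp8 and Fkbp11, held a CCAAT box. Of all genes with a window, 9.04% held this heat shock element and 41.1% a CCAAT box. Some genes have several windows, and the CCAAT box of Fkbp11 lay in 1 that does not hold the gene's start. Of 9 genes of the Hsp90 list with a window, 2, Dnaja1 and Stub1, held the heat shock element of 2 units. Other motifs were also searched. A heat shock element of 3 units was in 0 of the 8 members and 0 of the 9 Hsp90 list genes. Of all genes with a window, 0.66% held it. An ER stress element and a glucocorticoid response element were each in 0 of the 8 members, beside 0.14% and 0.54% of all genes. An E-box was in 1 member, Fkbp11, beside 8.09% of all genes.

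Fkbp4 works within the Hsp90 cycle, in which Hsp70 and Hsp90 pass a client protein along with the help of co-chaperones. Of the 15 genes of Hsp90 and its co-chaperones on the list, 12 could be tested. In DR against AL 1 of these was called higher and 2 lower, in Rapa 2 higher and 0 lower, and in Rapa + DR 3 higher and 3 lower. Of all tested probes 17.6%, 14.7% and 27.8% were called in these comparisons. The same shares stand beside the counts of each list below. The median change of the 12 was -0.02 in DR, 0.05 in Rapa and 0.06 for Rapa + DR, beside 0.00, 0.00 and 0.01 over all tested probes.

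Stip1, the adaptor that bridges Hsp70 and Hsp90, fell by 0.44 ± 0.11 in DR (adjusted p = 0.00345) and by 0.82 ± 0.11 in Rapa + DR (adjusted p = 1.18e-07), and its change in Rapa was -0.06 ± 0.11 (adjusted p = 0.781). Unc45a, a co-chaperone for myosin folding, fell by 0.48 ± 0.09 in DR and by 0.48 ± 0.09 in Rapa + DR (adjusted p = 6.83e-05 and 1.82e-05). Ptges3, which encodes the p23 co-chaperone, rose by 0.49 ± 0.12 in Rapa and by 0.60 ± 0.12 in Rapa + DR (adjusted p = 0.0033 and 8.26e-05), and St13, which binds Hsp70, rose by 0.68 ± 0.10 in Rapa + DR (adjusted p = 3.98e-07). These co-chaperones of one cycle thus differed in direction. Ppp5c, a phosphatase with the same kind of Hsp90-binding repeats as FKBP52, rose by 0.27 ± 0.08 in DR (adjusted p = 0.00671).

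Hspa8, the constitutive Hsp70, was 0.53 ± 0.16 lower in Rapa + DR (adjusted p = 0.00626) by its brightest probe, but the mean of its probes gave 0.32 with an adjusted p of 0.334. With arrays centred on their mean and not divided by the SD, the brightest probe gave 0.09 (adjusted p = 0.713), so that the direction of Hspa8 is not settled. Ahsa1, which stimulates the Hsp90 ATPase, rose by 0.30 ± 0.10 in Rapa (adjusted p = 0.0285) and by 0.28 ± 0.10 in Rapa + DR (adjusted p = 0.0197). The call in Rapa was lost without any 1 of AL mice 1, 4 and 8 or Rapa mice 11 and 12, with adjusted p between 0.0521 and 0.0675. Hsp90aa1 was above background on 4 of the 46 arrays and was not called.

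**Figure D2:**
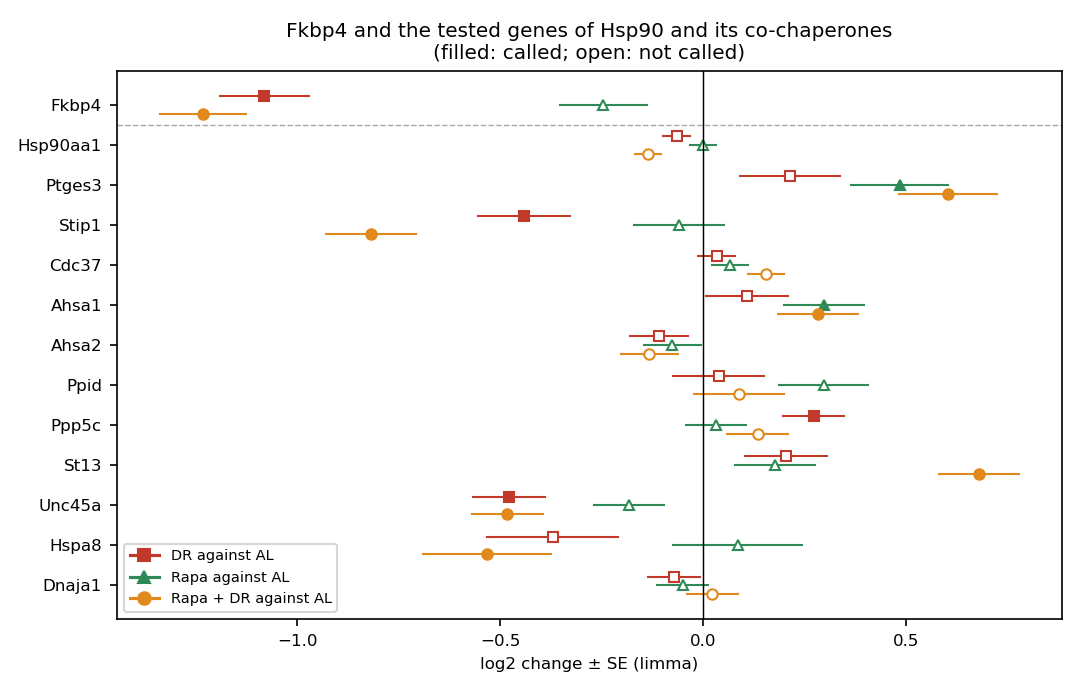
Log2 change ± SE against AL of Fkbp4 and of the 12 tested genes of Hsp90 and its co-chaperones, with DR as squares, Rapa as triangles and Rapa + DR as circles, filled where called. Fkbp4, Stip1 and Unc45a lie left of 0 in DR and Rapa + DR, and Ptges3 and St13 lie right of 0.

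Fkbp5, the close relative of Fkbp4 that acts in the opposite sense on the glucocorticoid receptor, is not among the 9 genes. Its changes against AL were 1.15 ± 0.20 in DR and 1.54 ± 0.19 in Rapa + DR (adjusted p = 2.08e-05 and 1.97e-08), while that in Rapa was 0.14 ± 0.19 (adjusted p = 0.691). Of 8 other FKBP family genes 4 could be tested, with 1 called higher in DR, none in Rapa and 2 for Rapa + DR, and none lower. The other call was Fkbp14, an ER FKBP for collagen, which rose by 0.33 ± 0.07 in Rapa + DR (adjusted p = 6.27e-05).

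Fkbp8 encodes FKBP38, which is anchored in the outer mitochondrial and ER membranes, holds Bcl2 there and has been described as a partner of the mTORC1 activator Rheb. Its lowest, median and highest levels were 9.98, 10.27 and 10.68 in DR, 9.66, 10.09 and 10.79 in Rapa, 9.94, 10.26 and 10.49 in Rapa + DR, and 9.90, 10.59 and 10.78 in AL. The medians of the 3 treated groups lay below that of AL, but each group overlapped AL, in which mouse 7, at 9.90, was the single mouse below 10. Fkbp8 fell by 0.38 ± 0.10 in Rapa (adjusted p = 0.00418, 11 of 12 mice below the AL median) and by 0.28 ± 0.10 in Rapa + DR (adjusted p = 0.0187, 12 of 12).

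In DR the change of Fkbp8 was -0.23 ± 0.10 (adjusted p = 0.0908, 10 of 11 mice). It passed the threshold without AL mouse 7 (-0.29, adjusted p = 0.0192) and without DR mouse 9 (-0.27, adjusted p = 0.0406). Rapa + DR and Rapa differed by 0.10 ± 0.09 (adjusted p = 0.448), and the interaction was 0.33 ± 0.14 (adjusted p = 0.173). Both Fkbp8 calls against AL depended on the scaling: with arrays centred on their mean but not divided by their SD, the change was -0.37 in Rapa (adjusted p = 0.105) and 0.04 in Rapa + DR (adjusted p = 0.859), and Fkbp8 was called higher in Rapa + DR than in Rapa (0.41, adjusted p = 0.0272). Centred on the median of the bright probes, the call in Rapa held, and the change in Rapa + DR was -0.20 (adjusted p = 0.0657).

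Of 6 partners of FKBP38 on the list 4 could be tested, with 1 called higher in DR, 1 higher in Rapa, and 2 higher and 1 lower in Rapa + DR. Rheb, the small GTPase that switches on mTORC1, rose by 0.54 ± 0.13 in DR, 0.61 ± 0.13 in Rapa and 0.69 ± 0.13 for Rapa + DR (adjusted p = 0.00161, 0.000524 and 2.11e-05). Bcl2l1, which encodes the survival protein Bcl-xL, rose by 0.30 ± 0.08 in Rapa + DR (adjusted p = 0.00184), and Psmd4, a ubiquitin receptor of the proteasome, fell by 0.64 ± 0.12 (adjusted p = 5.38e-05). Bcl2 itself was above background on 1 array.

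Fkbp2 encodes FKBP13, a small FKBP of the ER lumen. Its bright probe had a lowest, median and highest level of 10.09, 10.65 and 10.80 in DR, 9.01, 10.43 and 10.92 in Rapa, 10.14, 10.68 and 10.94 in Rapa + DR, and 9.53, 10.23 and 10.60 in AL. All groups overlapped, and Rapa mouse 4 stood lowest of the 46. The change was 0.40 ± 0.16 in Rapa + DR (adjusted p = 0.0399, 9 of 12 mice above the AL median), 0.33 ± 0.16 in DR (adjusted p = 0.151) and 0.12 ± 0.16 in Rapa (adjusted p = 0.683). The call in Rapa + DR was lost without any 1 of AL mice 1, 3, 4 and 8 or of Rapa + DR mice 1, 2, 5, 6, 9, 10 and 12, with adjusted p between 0.0526 and 0.0864. With arrays centred on their mean but not divided by their SD, the bright probe was also called in DR (0.54, adjusted p = 0.0318).

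The second Fkbp2 probe is dimmer and was above background on 43 arrays. Its lowest, median and highest levels were 6.77, 7.09 and 7.31 in DR, 6.58, 6.86 and 7.26 in Rapa, 6.90, 7.26 and 7.51 in Rapa + DR, and 6.53, 7.02 and 7.25 in AL. It was higher in Rapa + DR than in AL by 0.27 ± 0.08 (adjusted p = 0.00502, 11 of 12 mice) and higher than in Rapa by 0.35 ± 0.08 (adjusted p = 0.000478, 12 of 12 mice). Both probes thus placed Rapa + DR above AL. Against Rapa the bright probe gave 0.29 ± 0.16 on the reported scale (adjusted p = 0.164) and was called with arrays centred on the mean (0.64, adjusted p = 0.00467) or on the median of the bright probes (0.41, adjusted p = 0.0298), as was the mean of both probes (0.32, adjusted p = 0.0132). The dimmer probe followed the spread of its array, with a Pearson r of 0.67 within groups over 46 mice, against -0.11 for the bright probe.

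Fkbp9 encodes an ER FKBP with several isomerase domains. Its lowest, median and highest levels were 7.94, 8.57 and 8.77 in DR, 8.01, 8.48 and 8.77 in Rapa, 8.55, 8.74 and 8.86 in Rapa + DR, and 8.24, 8.44 and 8.93 in AL. The Rapa + DR mice held the upper and narrowest stretch, inside the AL range. Fkbp9 rose by 0.22 ± 0.09 in Rapa + DR against AL (adjusted p = 0.0373, 12 of 12 mice above the AL median) and was 0.25 ± 0.08 higher in Rapa + DR than in Rapa (adjusted p = 0.0238, 12 of 12). In DR the change against AL was 0.00 ± 0.09 (adjusted p = 0.979) and in Rapa -0.03 ± 0.09 (adjusted p = 0.881), and Rapa + DR differed from DR by 0.21 ± 0.09 (adjusted p = 0.161). The permutation test of this last difference, 1 of the 36 run, gave an unadjusted p of 0.00897.

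The Fkbp9 level moved with the spread of the array, with a Pearson r of 0.57 within groups over 46 mice, and that spread was largest in Rapa + DR. With the array SD as a covariate the changes were 0.09 against AL (adjusted p = 0.387) and 0.11 against Rapa (adjusted p = 0.320), and with quantile normalization the change against AL was 0.12 (adjusted p = 0.109). With the background level of the array as a covariate the change against AL was 0.24 (adjusted p = 0.0761). The call against AL was also lost without any 1 of AL mice 1, 2, 4, 6, 7 and 10 or of Rapa + DR mice 3, 4, 7, 9, 10 and 12 (adjusted p between 0.0501 and 0.0746), and that against Rapa without any 1 of Rapa mice 1, 2, 5, 7, 8 and 10 (adjusted p between 0.0360 and 0.0562, with the median difference under 15% where p stayed under 0.05).

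Fkbp11 encodes an ER membrane FKBP that is abundant in secretory cells. Its lowest, median and highest levels were 7.76, 8.52 and 9.40 in DR, 7.33, 8.56 and 9.22 in Rapa, 7.66, 8.24 and 8.77 in Rapa + DR, and 7.36, 8.33 and 8.78 in AL. The groups overlapped throughout, and Rapa mouse 4 was again the lowest of the 46. The changes against AL were 0.37 ± 0.18 in DR, 0.27 ± 0.17 in Rapa and 0.10 ± 0.17 for Rapa + DR (adjusted p = 0.144, 0.318 and 0.680), and the interaction was -0.53 ± 0.25 (adjusted p = 0.233). Its SD within groups, 0.43, was larger than that of 96.1% of all tested probes, so that changes of this size could not be told from the spread between mice. Plasma cells are rich in Fkbp11: none of the 8 tested B and plasma cell markers was called in any group against AL, and 1 of them was above background on every array.

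**Figure D3:**
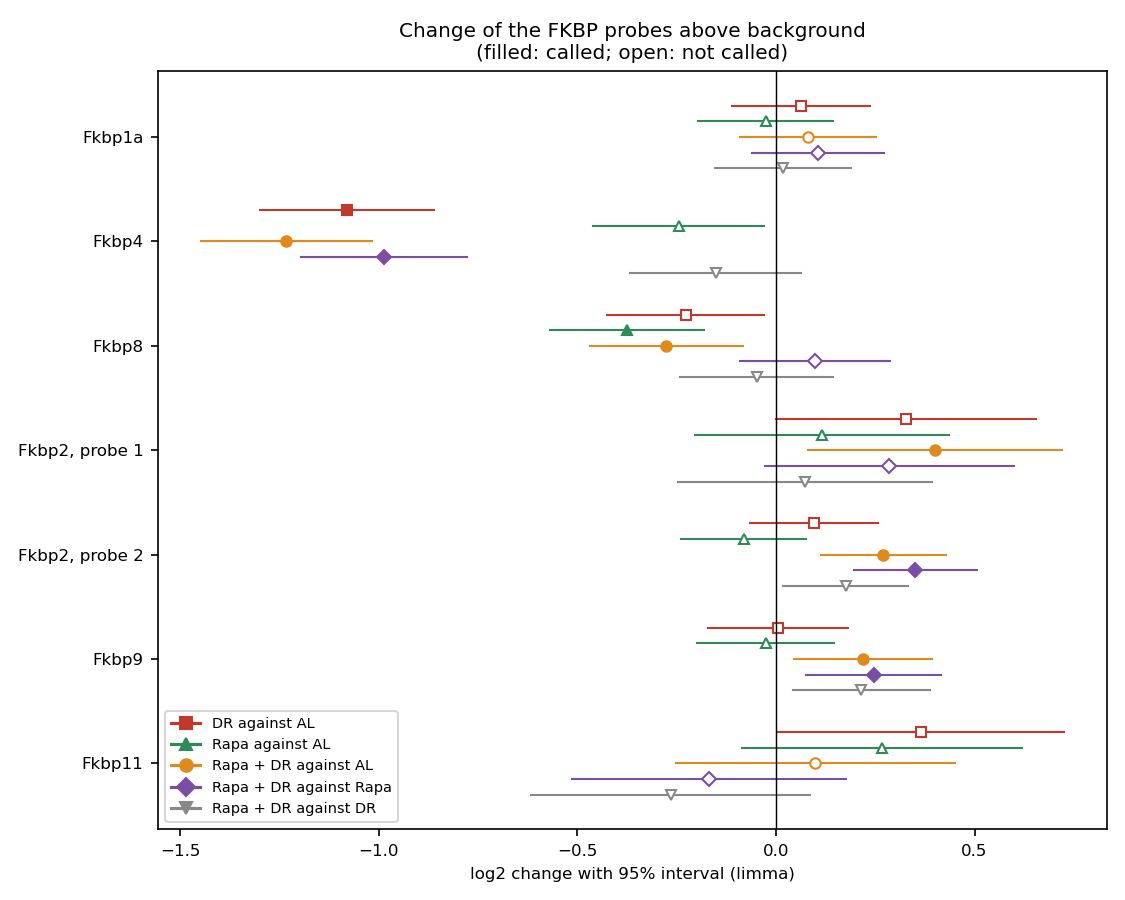
Log2 change with its 95% interval for the 7 FKBP probes above background, in 5 comparisons, filled where called. The intervals of Fkbp4 in DR and in Rapa + DR against AL end at -0.86 and -1.02, far from 0, while those of Fkbp1a span 0 in each comparison shown.

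The ER members share their compartment with the chaperones and disulfide isomerases of the unfolded protein response. Of 20 such genes 14 could be tested: 2 were called higher and 0 lower in DR, 8 higher and 0 lower in Rapa, and 3 higher and 2 lower in Rapa + DR. The median change was -0.08 in DR, 0.36 in Rapa and -0.06 for Rapa + DR, beside 0.00, 0.00 and 0.01 over all tested probes. Creld2, Dnajb9 and Ero1lb, all ER stress genes, rose in Rapa by 1.19 ± 0.27, 1.09 ± 0.23 and 0.77 ± 0.13 (adjusted p = 0.00113, 0.000604 and 6.19e-05). Dnajb9 and Ero1lb were also called higher in Rapa + DR, by 0.80 ± 0.23 and 0.36 ± 0.13 (adjusted p = 0.00481 and 0.0275). In DR, Dnajb9 rose by 0.71 ± 0.23 (adjusted p = 0.0235). That call was lost without any 1 of AL mouse 6 and DR mice 4 and 6, and that of Ero1lb in Rapa + DR without any 1 of AL mice 6, 8 and 9 and Rapa + DR mouse 1. In the same Rapa livers Fkbp2, Fkbp9 and Fkbp11 changed by 0.12, -0.03 and 0.27 and were not called. The difference between these FKBPs and the chaperones was not tested.

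In Rapa + DR livers, where Fkbp2 and Fkbp9 were called higher, P4hb, the abundant protein disulfide isomerase, fell by 0.65 ± 0.19 (adjusted p = 0.00584) and Sel1l, a part of the machinery that returns misfolded protein to the cytosol, rose by 0.47 ± 0.08 (adjusted p = 1.45e-05). Pdia3 was 0.35 ± 0.12 lower (adjusted p = 0.0211), but 0.04 higher with arrays centred on their mean and not divided by the SD (adjusted p = 0.825). Of 14 collagen modifying enzymes, which share the ER with these FKBPs, 9 could be tested, with 0 called higher and 1 lower in DR, none in Rapa, and 1 higher and 2 lower in Rapa + DR. In these comparisons 17.6%, 14.7% and 27.8% of all tested probes were called. Plod3, a lysyl hydroxylase, fell by 0.38 ± 0.10 in DR and by 0.48 ± 0.10 in Rapa + DR (adjusted p = 0.00537 and 0.00015).

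Fkbp9 is expressed in collagen-making cells, so the markers of stellate cells were set beside it. Of 15 tested stellate cell and fibroblast markers 1, Lum, was called, higher by 0.19 ± 0.06 in DR, 0.25 ± 0.06 in Rapa and 0.35 ± 0.06 for Rapa + DR (adjusted p = 0.0146, 0.00113 and 2.37e-06). The log2 of their summed level ran from 12.80 to 13.38 in DR, 12.64 to 13.27 in Rapa, 12.68 to 13.32 in Rapa + DR and 12.74 to 13.30 in AL, and Col1a1, Col1a2 and Col3a1 were above background on at most 3 arrays. The part of such cells in the change of Fkbp9 was not tested.

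FKBP12 with rapamycin acts on mTOR complex 1, and the RNA of the complexes and of their regulators gave calls in both directions. Of 11 genes of the mTOR complexes 8 could be tested, with 2 called higher and 3 lower in DR, 1 higher and 1 lower in Rapa, and 1 higher and 3 lower in Rapa + DR, and medians of -0.01, -0.11 and -0.07. Rictor, the defining subunit of complex 2, rose by 0.52 ± 0.11 in DR, 0.51 ± 0.11 in Rapa and 0.76 ± 0.11 for Rapa + DR (adjusted p = 0.000419, 0.000635 and 2.84e-07). Akt1s1, which encodes PRAS40, an inhibitory subunit of complex 1, fell by 0.33 ± 0.11, 0.52 ± 0.10 and 0.53 ± 0.10 in the same groups (adjusted p = 0.0195, 0.000329 and 5.82e-05), and Mlst8, a subunit of both complexes, fell by 0.41 ± 0.07 in DR and by 0.42 ± 0.07 in Rapa + DR (adjusted p = 2.29e-05 and 3.29e-06).

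Among 16 mTORC1 regulators and targets 13 could be tested, with 6 called higher and 2 lower in DR, 2 higher and 2 lower in Rapa, and 6 higher and 2 lower in Rapa + DR. Eif4ebp3, a repressor of cap-dependent translation, rose by 1.31 ± 0.19 in DR and by 1.39 ± 0.18 in Rapa + DR (adjusted p = 1.04e-06 and 7.37e-08). Tsc2, the brake on Rheb, fell by 0.35 ± 0.10 in DR, 0.48 ± 0.10 in Rapa and 0.42 ± 0.10 for Rapa + DR (adjusted p = 0.0109, 0.00055 and 0.000774). Rheb rose and Tsc2 fell in each of the treated groups, in which Fkbp1a was not called.

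The other partners of FKBP12 were also set beside Fkbp1a. Of 7 type I receptors of the TGF beta family 4 could be tested, and 1, 2 and 2 were called higher in DR, Rapa and Rapa + DR, with none lower. Tgfbr1 rose by 0.45 ± 0.14, 0.46 ± 0.14 and 0.48 ± 0.14 (adjusted p = 0.016, 0.0132 and 0.00411), and Bmpr1a by 0.26 ± 0.07 in Rapa and 0.47 ± 0.07 for Rapa + DR (adjusted p = 0.00718 and 9.73e-07). Of the calcium release channels 3 of 6 could be tested, with 1 call in all, Itpr2 lower by 0.32 ± 0.11 in Rapa (adjusted p = 0.0255), which was lost without any 1 of AL mice 5, 6 and 10 or Rapa mice 2 and 7 (adjusted p between 0.0520 and 0.0544).

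Calcineurin, the phosphatase that FKBP12 inhibits when it carries the related drug tacrolimus, had 7 of 9 genes tested, with 1 higher and 2 lower in DR, 1 higher in Rapa, and 2 higher and 2 lower in Rapa + DR. Ppp3r1, its regulatory subunit, rose by 0.41 ± 0.08 in DR, 0.31 ± 0.08 in Rapa and 0.57 ± 0.08 for Rapa + DR (adjusted p = 0.000183, 0.00436 and 2.46e-07). Its call in Rapa was lost without any 1 of Rapa mice 3, 4, 5, 6, 7 and 9, with adjusted p between 0.00612 and 0.0109 and the median difference under 15%. Rcan2, an inhibitor, fell by 0.44 ± 0.08 in DR and by 0.39 ± 0.08 in Rapa + DR (adjusted p = 2.66e-05 and 5.86e-05). Of 6 partners of the nuclear Fkbp3 product 5 could be tested, with 2, 2 and 1 called higher in DR, Rapa and Rapa + DR and none lower, and Hdac2, a histone deacetylase, rose by 0.34 ± 0.11, 0.51 ± 0.10 and 0.77 ± 0.10 (adjusted p = 0.0152, 0.000446 and 8.42e-08).

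The median changes of these lists, in the order DR, Rapa, Rapa + DR against AL, stood beside 0.00, 0.00 and 0.01 over all tested probes. They were 0.01, -0.01 and 0.01 for the mTORC1 regulators and targets, 0.12, 0.22 and 0.30 for the TGF beta family receptors, and -0.09, -0.03 and -0.09 for the calcium release channels. Those of calcineurin were 0.10, -0.07 and 0.18, those of the FKBP38 partners 0.07, 0.13 and 0.16, and those of the Fkbp3 product's partners 0.06, 0.00 and 0.10. The collagen modifying enzymes had -0.06, -0.05 and -0.05, and the other FKBP genes 0.11, 0.08 and 0.22. Dim probes enter these medians, since a probe above background on 1 array was tested. The mTORC1 list's median was the value of Rhebl1 in DR, above background on 2 arrays. In Rapa it was that of Rragb, above background on 1 array. The calcium channel medians were the values of Ryr1, also above background on 1 array.

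**Figure D4:**
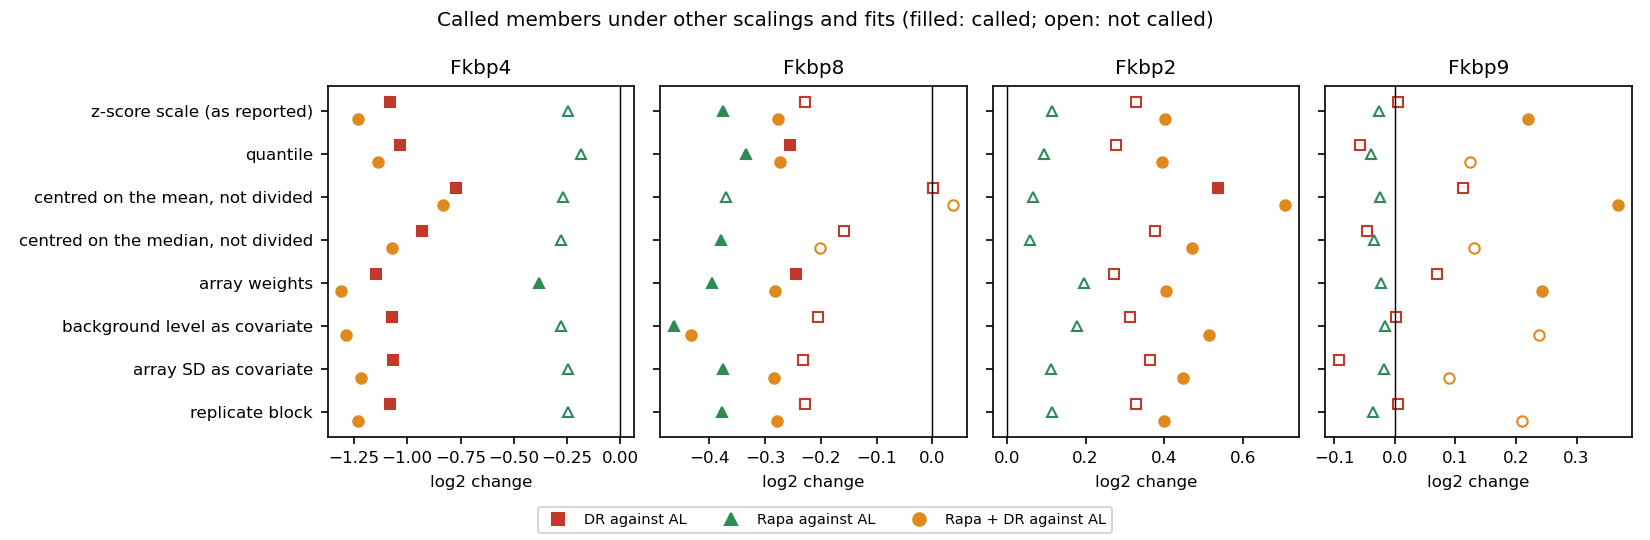
Log2 change against AL of Fkbp4, Fkbp8, Fkbp2 and Fkbp9 under the reported scale and 7 other scalings or fits, with DR as squares, Rapa as triangles and Rapa + DR as circles, filled where called. Fkbp4 in DR and Rapa + DR is filled in every line. Fkbp8 in Rapa + DR crosses 0 when arrays are centred on their mean and not divided by their SD, and Fkbp9 in Rapa + DR is open in 5 of the 8 lines.

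Members did not move as one across mice. With the group means removed, the pairs that varied most alike over the 46 mice were Fkbp1a with Fkbp2 (Pearson r = 0.56, Spearman rho = 0.56), Fkbp2 with Fkbp11 (0.51 and 0.37) and Fkbp4 with Fkbp8 (0.39 and 0.23). The most opposed were Fkbp8 with Fkbp11 (-0.61 and -0.56), Fkbp2 with Fkbp8 (-0.51 and -0.39) and Fkbp2 with Fkbp9 (-0.41 and -0.39). Fkbp8 and Fkbp11 ran against each other within each group, with r between -0.73 and -0.54. All these values share the arrays and their scaling, and they describe the mice without a test.

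**Figure D5:**
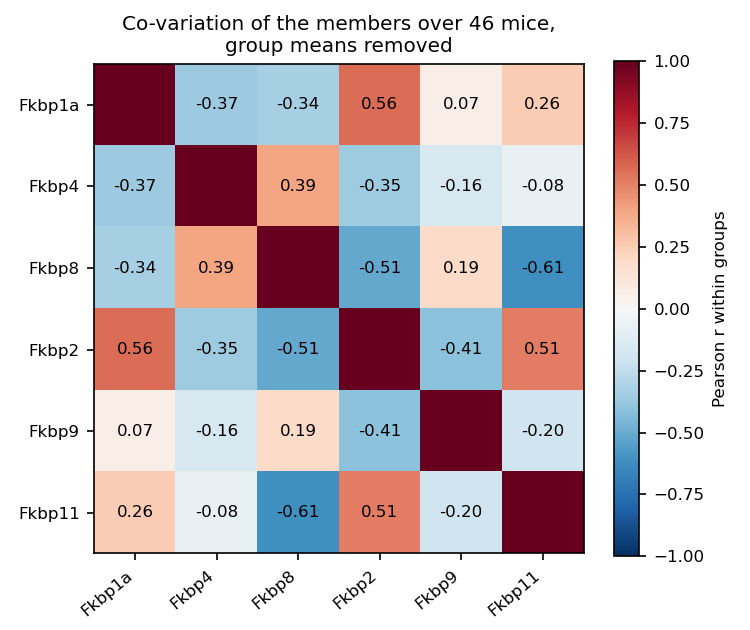
Pearson r between the 6 tested members over 46 mice after the mean of each group was removed, red where positive and blue where negative. Fkbp8 is blue against Fkbp1a, Fkbp2 and Fkbp11, and red against Fkbp4 and Fkbp9.

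The genes whose pattern was most like a member's were taken by the same correlation within groups, over 46 mice and among 4887 genes above background on every array. For Fkbp4 they were Ahcy, the hydrolase of adenosylhomocysteine (r = 0.68), Alas2, the erythroid aminolevulinate synthase (0.66), and Cd151, a tetraspanin (0.65). Alas2 also shared the group pattern, with changes of -1.04 ± 0.13 in DR, -0.34 ± 0.13 in Rapa and -1.15 ± 0.13 for Rapa + DR (adjusted p = 1.24e-07, 0.0626 and 2.72e-09). It was called in Rapa without any 1 of AL mice 1 and 7 or Rapa mice 1, 4, 8 and 9 (adjusted p between 0.0348 and 0.0438), and the 2 other red cell genes tested, Hba-a1 and Slc4a1, were not called in any group. The log2 of the summed level of the 3 genes ran from 13.2 to 13.9 in DR, 12.8 to 14.8 in Rapa, 12.5 to 14.3 in Rapa + DR and 12.9 to 15.2 in AL, and the part of red cells in the Fkbp4 change was not tested. For Fkbp2 they were Cox17, a copper chaperone of the respiratory chain, Ubl5 and Ndufa5, a complex I subunit, each with r = 0.92.

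For Fkbp1a the closest were Alyref, an mRNA export factor (0.81), Psmd7, a proteasome subunit (0.79), and Borcs6 (0.77). For Fkbp8 they were Fam234a (0.80), Slc22a18 (0.75) and Aspscr1 (0.74), for Fkbp9 Tulp4 (0.78), Erlin2, an ER membrane protein (0.77), and Tmem43 (0.76), and for Fkbp11 Mydgf, a secreted ER protein (0.82), Rpl13a (0.80) and Ift20 (0.77). No member appeared among the 3 closest genes of another member.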

How the data were processed

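The authors hybridised liver RNA of 46 mice to Illumina Mouse Ref8 arrays. Each deposited value is a score (a z-score): the authors took the log2 signal, subtracted the mean of its array and divided by the SD of that array. Array signals were recovered from the z-scores, which they rebuilt to within 3.57e-08, and the z-scores were put back on a log2 scale with the mean SD (1.34) and mean level (7.05) of all arrays. The 14474 probes that rose above background on any array were tested with limma 3.58.1 in R 4.3.3, with 1 mean a group, a shared spread and Benjamini-Hochberg adjustment. A gene was represented by its brightest probe and called at adjusted p under 0.05 with medians differing by over 15%, and the interaction on p alone. The fit was tested on simulated data. A table of 92 columns whose names show no group was not used. Array signal carries no read depth, so the number of arrays limits the precision. Genes named are the members, up to 3 called genes a direction and list, and the 3 genes most like each member. The members, the lists (FKBP relatives, cyclophilins, mTOR, calcineurin, calcium channels, TGF beta receptors, Hsp90, FKBP38 and FKBP25 partners, ER chaperones, collagen enzymes and cell type markers) and the rule were chosen with earlier results of these data known. Alternatives were other scalings, filters, covariates, thresholds and single arrays left out.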

Additional observations from a re-analysis of the deposited data

How the results depend on the processing

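Of the 6 tested members, 2 were called in DR against AL with quantile normalization, with arrays centred on their mean but not divided by the SD, and with array weights. In Rapa against AL 0 were called when centred on the mean or at adjusted p under 0.001, and 2 with array weights. In Rapa + DR against AL the count was 2 when centred on the median of bright probes or at a median difference over 30%, and 1 at adjusted p under 0.001. In Rapa + DR against Rapa it was 5 when centred on the mean, and 1 with quantile normalization, over 30%, at adjusted p under 0.001 or with the array SD as a covariate. In DR against Rapa it was 0 when centred on the mean, and the interaction had 1 with array weights. Leaving out 1 array gave 1 to 2 members in DR against AL, 1 to 2 in Rapa against AL, 2 to 4 in Rapa + DR against AL, 0 to 0 in Rapa + DR against DR, 1 to 2 in Rapa + DR against Rapa, 1 to 1 in DR against Rapa and 0 to 0 in the interaction. Centred on the mean, Fkbp8 (0.037), Hspa8 (0.086), Pdia3 (0.042), Apoa1 (0.056), Fga (0.024) and Clec4g (0.031) turned positive in Rapa + DR against AL. Centred on the median, which moved the median of all tested probes to -0.17 in DR and -0.23 in Rapa + DR against AL, Alb in DR (-0.0044) and Crtap in Rapa + DR (-0.015) turned negative, and by the mean of its probes Hspa8 in Rapa + DR was 0.32. The cause was not tested. Among all called probes the share higher in Rapa + DR against AL was 64.1% as reported, 50.3% with quantile normalization, 77.3% centred on the mean and 19.7% centred on the median. In DR these shares were 62.8%, 49.5%, 79.1% and 39.3%, and in Rapa 59.6%, 51.3%, 65.1% and 52.2%.

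Mice of different groups share replicate numbers. The deviations of the 67 pairs with the same number correlated between -0.60 and 0.66 (median 0.043). The median was 0.0072 for arrays of other groups with other numbers, and 4 of 46 mice matched their own number best. The numbers were not treated as pairs in the main fit, though these values cannot exclude a pairing. With the replicate block 3 members were called in Rapa + DR against AL, Fkbp9 being lost (0.21, adjusted p = 0.0604), and the other counts were as reported.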

Other observations

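Cyclophilins and parvulins are the other isomerase families. Of 18 genes 6 could be tested, with 1 called higher in DR, 2 lower in Rapa and 1 higher in Rapa + DR, against AL. Of all tested probes 17.6%, 14.7% and 27.8% were called in these comparisons. Ppic, a secretory pathway cyclophilin, was 0.34 higher in DR, a call lost without DR mouse 1 or 4 (adjusted p between 0.0501 and 0.0585), and 0.37 higher in Rapa + DR. Ppif, the mitochondrial cyclophilin, fell by 0.28 in Rapa, and Ppie, a splicing cyclophilin, fell by 0.23, a call lost without any 1 of AL mice 2, 5, 6, 9 and 11, where the median difference was under 15% (adjusted p between 0.00783 and 0.0133).

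Of 12 hepatocyte markers 2 were called higher in DR, none in Rapa, and 2 higher and 2 lower in Rapa + DR. Those in DR were Pck1 (0.76) and Alb (0.19). Alb was above background on 13 arrays, and its call was lost without any 1 of DR mice 1, 5, 8, 9, 10 and 11. Of 10 Kupffer cell and macrophage markers 0 were called higher and 2 lower in DR, 0 and 4 in Rapa, and 1 and 4 in Rapa + DR. The log2 of their summed level had a median of 11.4 in DR, 11.3 in Rapa, 11.3 in Rapa + DR and 11.5 in AL. Of 11 endothelial markers 1 was called higher in DR, 4 lower in Rapa, and 1 higher and 1 lower in Rapa + DR. Of 7 T and NK cell and 4 cholangiocyte markers none was called against AL. Some passed limma's adjusted p but not the rule on medians, such as Sox9 (0.19, adjusted p = 0.00119) and Cd3d (-0.16, adjusted p = 0.00563) in Rapa. Sox9 was above background on 11 arrays and Cd3d on 1. Sox9 was called higher in Rapa without any 1 of AL mice 3, 6, 7, 9 and 11. The part of these cells in the members' changes was not tested.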
